A study of Mus musculus with 15 samples.

Results

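The effect of an antibody against CD8a on skeletal muscle was examined in mice given KrasIKKaL tumour cells, by setting 3 libraries of anti-CD8a-treated mice against 4 libraries of mice given an isotype IgG. These 7 libraries were selected by their sample titles from the 15 of the series, and 14372 genes were tested. RNA came from the tibialis anterior, a fast muscle on the shin, and the mice were C57BL/6 males (C57BL/6NCrlOri) aged 6 to 8 weeks. Anti-CD8a mice received 200 µg of the depleting antibody clone 2.43 into the abdomen 3 times a week, after 5000000 KrasIKKaL tumour cells had been placed in the trachea. Anti-PD-L1 mice (3 libraries) received the same cells and 200 µg per kg of clone 10F.9G2, also 3 times a week. IgG mice received the same cells and a rat IgG2b isotype antibody of clone LTF-2, whose dose and schedule the labels do not give. Control mice (5 libraries) received no tumour cells. The labels describe no genetic modification of the mice and give neither the length of treatment nor the time of collection, and they do not state that each library is a separate animal, so the p-values measure the spread between these libraries. The series was described as a search for targets in cachexia and in muscle side effects of immune therapy, and the comparison of anti-CD8a with IgG asks how tumour-bearing muscle differs when CD8a is targeted.

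CD8 T cells are the cytotoxic lymphocytes that recognise peptides on MHC class I and kill the cells presenting them. Cachexia is the loss of muscle in cancer and other illness, in which muscle fibres raise protein breakdown through the ubiquitin-proteasome system and through lysosomes and autophagy, and lower protein synthesis. FoxO transcription factors, held back by insulin and IGF-1 through the kinase AKT, and the glucocorticoid receptor drive many of the genes used in this breakdown, among them the muscle ubiquitin ligases Trim63 (MuRF1) and Fbxo32 (atrogin-1).

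Library totals were 18525224 to 20019364 expected counts in the anti-CD8a group and 15894822 to 18768544 in the IgG group. By these totals, before any TMM factor, 3 counts, the limit that a count of 0 allows, equal 0.15 to 0.162 CPM in anti-CD8a libraries and 0.16 to 0.189 CPM in IgG libraries. Everywhere else, CPM is the count scaled to a common library size with TMM factors. The 8 markers of skeletal muscle fibres summed to between 99465 and 112995 CPM in anti-CD8a libraries, against between 84939 and 137502 CPM in IgG libraries. The targeted gene cannot check the treatment in this tissue: Cd8a had 0, 1 and 0 counts in anti-CD8a libraries, against 0, 0, 1 and 0 counts in IgG libraries, and Cd8b1, its partner chain, had 0, 0 and 0 counts against 0, 1, 0 and 1. Cd274, which encodes PD-L1, had 0.817, 1.66 and 2.38 CPM in anti-CD8a muscle, against 2.48, 1.2, 1.32 and 1.71 CPM in IgG muscle, and these ranges overlapped (adjusted p = 0.946). The spread within groups was lower after anti-CD8a, with a median SD of log2 CPM over genes of 0.207 in anti-CD8a libraries, against 0.351 in IgG libraries. On the first principal component the anti-CD8a libraries lay between -41.3 and -33.7, against 38.0 for IgG replicate 2 and 77.4 to 92.3 for the other IgG libraries.

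In anti-CD8a muscle 3333 genes (23.2% of those tested) were higher than in IgG muscle and 3569 (24.8%) were lower, 6902 in all (48%), at an adjusted p under 0.05 in edgeR's quasi-likelihood test with Benjamini-Hochberg adjustment, from which all adjusted p-values here come. Of these, 1875 were at least 2-fold higher (13%) and 1637 at least 2-fold lower (11.4%). The ranges of the groups were apart for 6872 genes (47.8%). Abundant genes took part: of the 100 most abundant, 21 rose and 32 fell. The median absolute log2 fold change over all genes was 0.59, beside a median standard error of 0.24. The balance of directions depends on scaling. With upper-quartile factors the median of all genes lay at 0.25 on the log2 scale, against 0.02 with TMM, and the split was 4629 higher and 2551 lower. Changes of gene groups are therefore best read beside these medians. Of 56 gene lists, 9 changed the sign of their median with upper-quartile factors, and each is named where it is described.

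**Figure D1:**
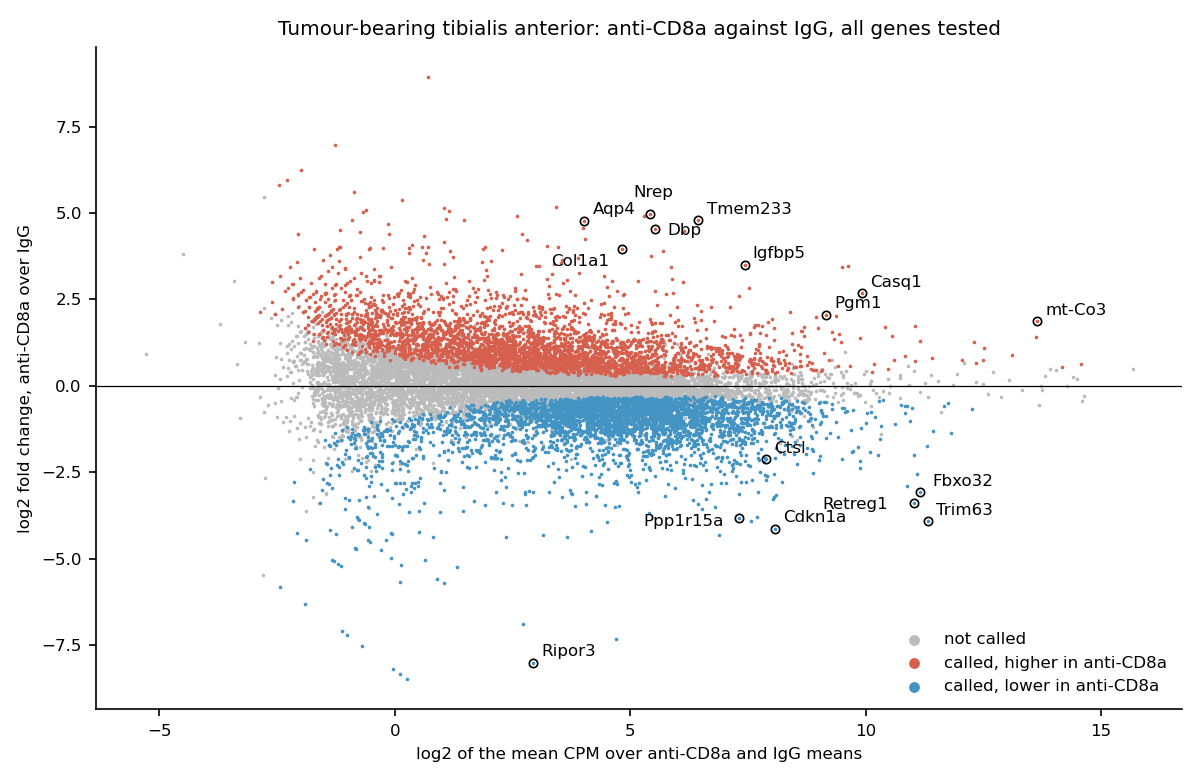
Each point is 1 of 14372 genes, placed by the log2 of its mean CPM (horizontal) and its log2 fold change of anti-CD8a over IgG (vertical), red or blue where called higher or lower and grey otherwise. Genes of protein breakdown such as Trim63 and Fbxo32 lie far below 0 at high abundance, and Casq1, Igfbp5 and Nrep far above it.

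Most genes of protein breakdown were lower in anti-CD8a muscle. Trim63, a ligase that marks sarcomere proteins with ubiquitin, had 257, 303 and 392 CPM in anti-CD8a muscle, against 5944, 4044, 4653 and 4519.8 CPM in IgG muscle. All anti-CD8a libraries lay far below every IgG library, and the log2 fold change was -3.92 ± 0.57 (SE, adjusted p = 9.04e-05). Fbxo32, the F-box protein of another muscle ligase, had 320.3, 455 and 679 CPM in anti-CD8a muscle, against 4590.3, 3279, 3772 and 4587 CPM in IgG muscle. Its groups were likewise far apart, with a log2 fold change of -3.06 ± 0.31 (adjusted p = 1.22e-05). Over the list of muscle ubiquitin ligases, 11 of 19 tested members fell and 3 rose, with a median log2 fold change of -0.70, beside the 24.8% of all genes that fell. Fbxo31 averaged 123 ± 22 CPM in anti-CD8a muscle, against 425 ± 129 CPM in IgG muscle (SD, n = 3 and 4), and Fbxo30 (MUSA1) averaged 19.4 ± 2.15 CPM in anti-CD8a muscle, against 47.8 ± 16.1 CPM in IgG muscle. Both fell, at log2 -1.79 and -1.30.

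The promoter window of Trim63 is shown because the gene fell by the largest amount among the ligases and belongs to the genes that FoxO factors and the glucocorticoid receptor are known to drive. It covers 250 bases before to 50 after the start that RefSeq gives, at chr4:134314870-134315169 of GRCm38.p6 on the + strand, and capitals mark 2 motifs that touch.
Trim63: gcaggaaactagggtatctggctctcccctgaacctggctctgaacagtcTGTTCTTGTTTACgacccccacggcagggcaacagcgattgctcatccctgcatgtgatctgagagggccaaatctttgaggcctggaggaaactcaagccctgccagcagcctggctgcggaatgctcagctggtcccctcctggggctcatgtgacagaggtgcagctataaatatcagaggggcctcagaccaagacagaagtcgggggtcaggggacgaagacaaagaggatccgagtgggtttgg
The FoxO core GTAAACA lies on the opposite strand, from 194 to 188 bases before the start, and is held on either strand by 3.65% of 32851 promoter windows of the same length. The glucocorticoid half-site AGAACA, also on the opposite strand, lies directly before it, from 200 to 195 bases before the start, and is held by 19% of windows. The palindrome of that half-site with 3 bases between (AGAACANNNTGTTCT) is held in full by 3 of the windows, and not by that of Trim63. From 209 to 195 bases before the start, however, the Trim63 window matches it at 11 of its 12 fixed letters, the half-site marked above being its downstream arm, a match of at least 11 letters that 0.164% of windows hold. The window of Ctsl holds neither core nor half-site, and matches the palindrome at 8 letters at best. These matches are letters in a window, not measured sites.

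FoxO factors and genes known to respond to FoxO or glucocorticoids fell as a group: 11 of 18 tested members were lower and 1 was higher, with a median log2 fold change of -1.61. Sesn1, a stress-induced brake on mTORC1, had 22.6, 24.2 and 36.7 CPM in anti-CD8a muscle, against 739.7, 264.97, 180.3 and 352 CPM in IgG muscle. Every anti-CD8a library lay below every IgG library, with a log2 fold change of -3.79 ± 0.56 (adjusted p = 9.91e-05). Eif4ebp1, the binding protein that holds the cap-binding factor eIF4E, had 41.8, 42.9 and 69.7 CPM in anti-CD8a muscle, against 463, 316, 662 and 476 CPM in IgG muscle. Its log2 fold change was -3.22 ± 0.29 (adjusted p = 9.61e-06). Pik3r1, the regulatory subunit of PI3-kinase, changed by log2 -2.77 ± 0.30 and Irs2, an adaptor of the insulin receptor, by -2.27 ± 0.54. The FoxO factors themselves, picked out after their values were seen, did not move together. Foxo6 rose, at log2 2.20 ± 0.35 (adjusted p = 1.68e-04), the 1 rise called in the list. It was low, averaging 3.79 CPM in anti-CD8a muscle, against 0.819 CPM in IgG muscle. The gene Foxo6os is antisense to Foxo6, and the labels do not say whether strand was used in counting, so the Foxo6 rise is less certain. Foxo4 was not called (log2 -0.30 ± 0.17, adjusted p = 0.162). Foxo3 fell, at log2 -1.70, and Foxo1 had a log2 fold change of -1.52 ± 0.58 (adjusted p = 0.0396). The Foxo1 call was lost without IgG replicate 1 (adjusted p = 0.116), without any 1 anti-CD8a library (0.0673 to 0.12), without IgG replicate 2 (0.0512) and with upper-quartile factors (0.065).

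The proteasome, the chamber in which ubiquitin-tagged proteins are cut up, had 33 of 41 tested members lower and 1 higher, with a median log2 fold change of -1.10. Psmd11, a subunit of the lid of the 19S regulator, had 86.6, 86.1 and 90.9 CPM in anti-CD8a muscle, against 392, 276, 391 and 436 CPM in IgG muscle. The anti-CD8a libraries lay close together and well below the IgG libraries (log2 -2.09 ± 0.20, adjusted p = 9.61e-06). Psmd4, a ubiquitin receptor, Psmc4, an ATPase, and Psmd8 fell, at log2 -1.97, -1.92 and -1.88. In the list of ubiquitin genes, E2 enzymes and VCP, 15 of 21 fell and 2 rose, and 9 fell with upper-quartile factors. Ubb, which encodes a chain of ubiquitin units, had 759, 815 and 922 CPM in anti-CD8a muscle, against 3828, 2174, 3733 and 3629 CPM in IgG muscle. Every anti-CD8a library lay below every IgG library, with a log2 fold change of -2.01 ± 0.24. Nploc4, a cofactor of VCP, which pulls tagged proteins out of complexes, fell, at log2 -2.55. Immunoproteasome genes went the other way and are described with the immune genes.

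Lysosomal proteolysis and autophagy showed the same direction. Ctsl, the lysosomal cysteine protease cathepsin L, had 81.1, 97.8 and 85.5 CPM in anti-CD8a muscle, against 463, 226, 376 and 459 CPM in IgG muscle. No libraries of the groups overlapped, and the log2 fold change was -2.11 ± 0.29 (adjusted p = 5.32e-05). Of the cathepsin and lysosome list 12 of 25 fell and 4 rose (median -0.36), among the falls Atp6v1h, a subunit of the proton pump (log2 -2.17), and Gaa, the lysosomal glucosidase of glycogen (log2 -1.79), and among the rises the membrane protein gene Laptm4b (log2 1.41). Of the autophagy and mitophagy list 24 of 33 fell and 4 rose (median -0.79). Retreg1, a receptor that hands endoplasmic reticulum to autophagy, had 323, 421 and 333 CPM in anti-CD8a muscle, against 5346, 2404, 3498 and 3871 CPM in IgG muscle. It ranked with Trim63 and Fbxo32 among the largest losses in CPM, at log2 -3.40 ± 0.42. Bnip3, a mitophagy receptor, Gabarapl1, a member of the ATG8 family, and Sqstm1 (p62), a cargo receptor, fell, at log2 -2.18, -2.13 and -2.0.

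Among p53 targets and Gadd45 genes 9 of 15 fell and 1 rose (median -1.10). Cdkn1a, the cell cycle inhibitor p21, had 18.3, 17 and 51.1 CPM in anti-CD8a muscle, against 806, 272, 426 and 524 CPM in IgG muscle. The highest anti-CD8a library, replicate 3, lay far below the lowest IgG library, replicate 2 (log2 -4.14 ± 0.65). Bbc3 (Puma) and Trp53inp1 fell, at log2 -2.80 and -2.44. Eda2r, a receptor linked to muscle wasting, had 29.2, 22.5 and 32.5 CPM in anti-CD8a muscle, against 125, 200.1, 211 and 27.1 CPM in IgG muscle. IgG replicate 4 lay within the anti-CD8a range, and the fall was still called (log2 -2.33 ± 0.47, adjusted p = 9.71e-04). Of the calpain and caspase list 3 of 11 rose and 2 fell, near the share of all genes. Capn3, the muscle calpain, averaged 104 ± 10.5 CPM in anti-CD8a muscle, against 57.3 ± 14.8 CPM in IgG muscle, a rise of log2 0.86, while the calpain inhibitor Cast and the small subunit Capns1 fell, at log2 -0.69 and -0.64.

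**Figure D2:**
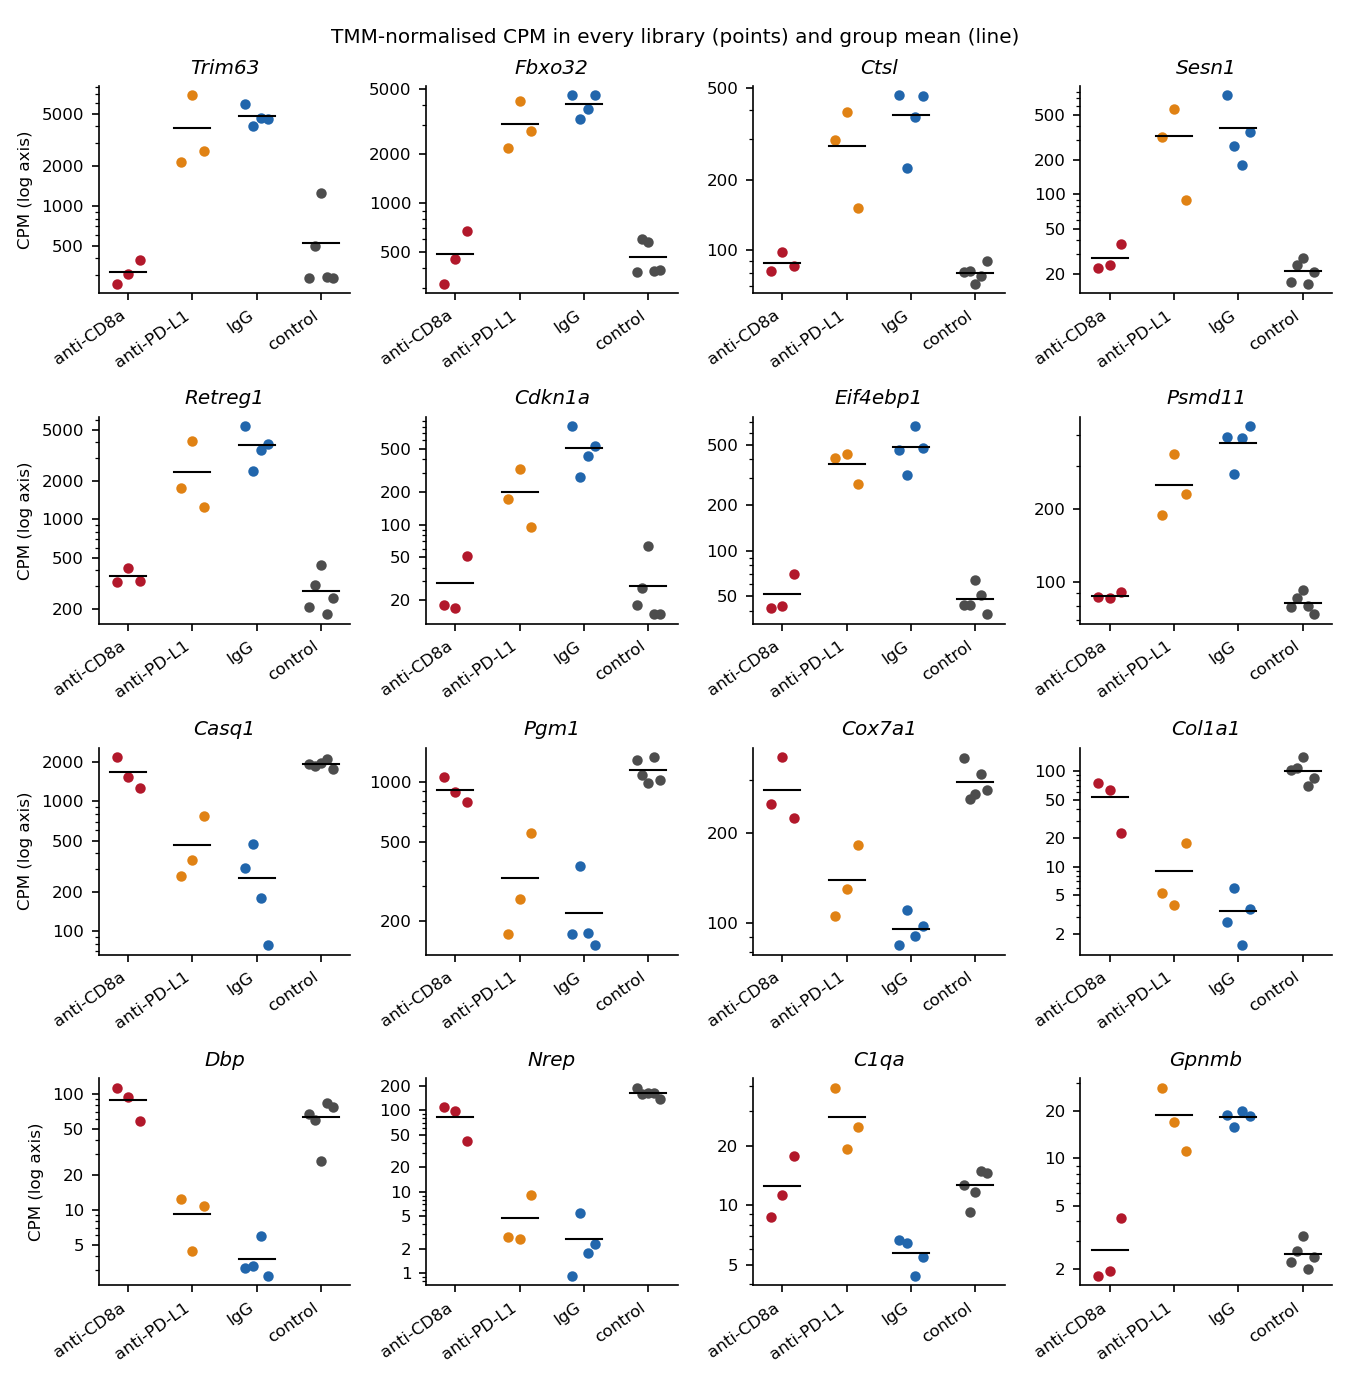
TMM-normalised CPM on log axes for 16 genes, with 1 point per library and a line at the mean of each group, in the order anti-CD8a, anti-PD-L1, IgG and control. The 3 anti-CD8a libraries lie below all 4 IgG libraries for Trim63, Fbxo32, Ctsl, Sesn1, Cdkn1a and Psmd11 and above them for Casq1, Cox7a1, Col1a1, Nrep and C1qa.

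Genes of protein synthesis were also lower. Ribosome biogenesis factors fell in 17 of 18 cases and rose in 0 (median -0.92). Gnl3, the nucleolar protein nucleostemin, had 22.7, 20.8 and 24 CPM in anti-CD8a muscle, against 117, 73.1, 118 and 107 CPM in IgG muscle. The groups were apart, at log2 -2.20 ± 0.24, and Pes1, Wdr43 and Rrp12, which act in rRNA processing, fell, at log2 -1.57, -1.57 and -1.48. Of translation factors 19 of 27 fell and 1 rose (median -0.81), with the initiation factor Eif3a at log2 -1.97 and the helicase Eif4a1 at -1.61. Of aminoacyl-tRNA synthetases, which load amino acids onto tRNAs, 15 of 20 fell and 0 rose (median -0.59), with Vars at log2 -1.71 and Aars at -0.91. Of cytosolic ribosomal protein genes 37 of 79 fell and 0 rose (median -0.46). That count moved with single libraries, to 10, 17 and 18 without anti-CD8a replicates 1, 2 and 3, to 16 and 15 without IgG replicates 1 and 3, and to 8 with upper-quartile factors. Ribosomal protein genes have many processed copies in the genome, so their counts are less certain.

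In the ATF4 and integrated stress response list 8 of 18 fell and 3 rose. Atf4, the transcription factor at its centre, averaged 176 ± 13.3 CPM in anti-CD8a muscle, against 545 ± 108 CPM in IgG muscle (log2 -1.63 ± 0.19). Ppp1r15a (GADD34), which brings the phosphatase to eIF2alpha, had 18, 20.6 and 24.8 CPM in anti-CD8a muscle, against 533, 209, 228 and 221 CPM in IgG muscle. IgG replicate 1 stood highest, and all IgG libraries lay above the anti-CD8a range (log2 -3.82 ± 0.39). Psph, an enzyme of serine synthesis, rose by log2 1.98, and Slc7a5, a transporter of large neutral amino acids, fell, at log2 -2.16.

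Most genes of the respiratory chain were higher. Of nuclear genes for complex I of the respiratory chain 28 of 35 rose and 0 fell, with a median log2 fold change of 0.64, beside 23.2% of all genes. Of complexes II to V 29 of 39 rose and 1 fell (median 0.57), and 19 rose without anti-CD8a replicate 2. Cox7a1, the muscle form of a cytochrome oxidase subunit, had 251, 359 and 225 CPM in anti-CD8a muscle, against 84.3, 111, 90.1 and 97.5 CPM in IgG muscle. All anti-CD8a libraries lay above all IgG libraries (log2 1.54 ± 0.20, adjusted p = 3.86e-05). Cytochrome c (Cycs), Cyc1 of complex III, Atp5j of ATP synthase and the complex I genes Ndufc1, Ndufb8 and Ndufs1 rose by log2 1.2, 1.17, 1.03, 1.11, 0.97 and 0.95.

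Mitochondrially encoded genes took 20.2%, 23.1% and 20.7% of counts in anti-CD8a libraries, against 13.7%, 14.7%, 16.7% and 12.8% in IgG libraries. The ranges were apart and the difference of means was 6.87 percentage points, with p = 0.0571 in a two-sided exact permutation test, the smallest that 35 splits of 7 libraries allow. Single genes of this set are less certain, because RSEM divides reads between them and nuclear copies. In the GENCODE vM21 transcripts 5 abundant gene models, Gm10222, Gm10925, Gm28437, Gm28661 and Gm29216, share at least 97.2% of their words of 31 bases with mitochondrial transcripts. Counted with these, the shares were 26.1%, 29.5% and 27.9% in anti-CD8a libraries, against 19.2%, 20.7%, 22.8% and 17.3% in IgG libraries, a difference of 7.85 points (added after the data were seen). Of the mitochondrially encoded genes 6 of 15 rose and 0 fell, or 3 without anti-CD8a replicate 2. The apparent rise of mt-Co3, a cytochrome oxidase subunit, was log2 1.87 ± 0.28 and that of mt-Atp6, an ATP synthase subunit, 1.42 ± 0.25. Gm10925 was at 8668, 10527 and 12571 CPM in anti-CD8a libraries, against 19746, 15317, 16952 and 10378 CPM in IgG libraries. Summed with it, mt-Atp6 and mt-Co3 reached 46766, 54091 and 45096 CPM in anti-CD8a libraries, against 31471, 25816, 32987 and 21029 CPM in IgG libraries. The log2 ratio of these means is 0.81. For mt-Atp6 and Gm10925 alone the sums were 27644, 30275 and 28345 CPM in anti-CD8a libraries, against 26748, 21325, 25365 and 16025 CPM in IgG libraries, a log2 ratio of 0.36 where mt-Atp6 by itself gave 1.42.

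**Figure D3:**
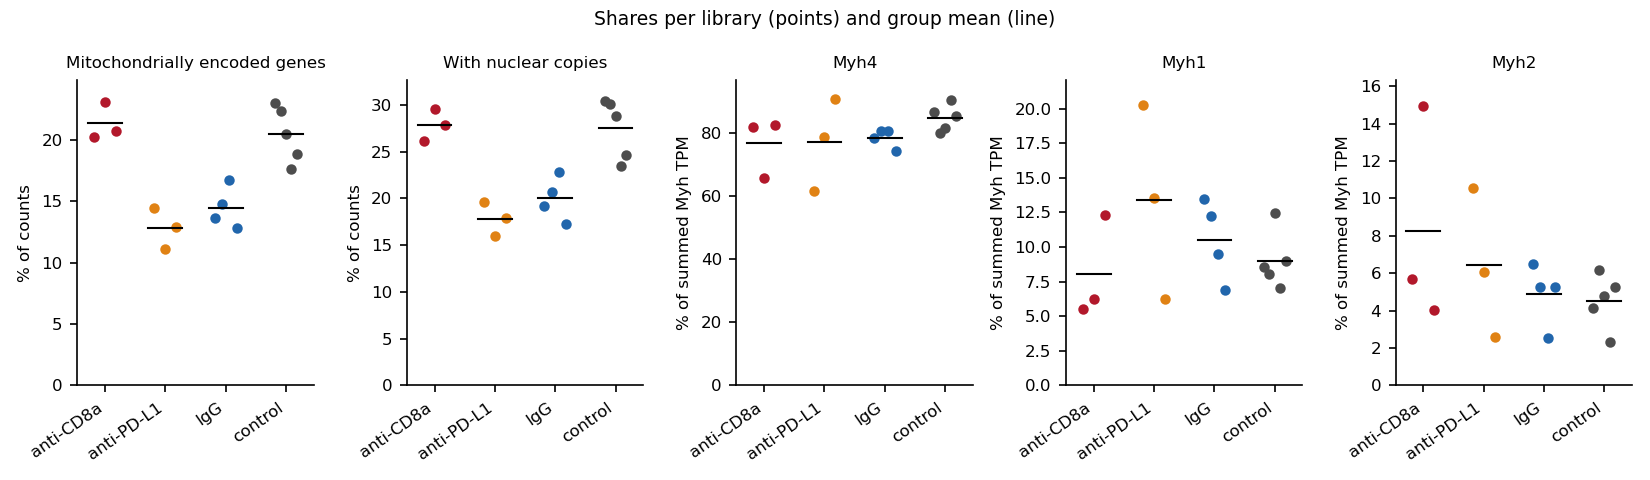
Shares per library, with a line at the group mean: mitochondrially encoded genes as % of counts, without and with 5 nuclear copies, and Myh4, Myh1 and Myh2 as % of the summed TPM of 6 myosin heavy chain genes. Both mitochondrial shares of the 3 anti-CD8a libraries lie above all 4 IgG libraries, and the myosin shares overlap.

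Of the citric acid cycle and pyruvate dehydrogenase list 9 of 27 rose and 0 fell, with 14 higher without anti-CD8a replicate 3 and 18 with upper-quartile factors. Pdp1, the phosphatase that switches pyruvate dehydrogenase on, had 112, 88.7 and 80.7 CPM in anti-CD8a muscle, against 13, 23.7, 10.5 and 12.5 CPM in IgG muscle. This was the largest change of the list, at log2 2.65 ± 0.26, and Idh3a and Dlat rose by log2 1.0 and 1.11. Of glycolysis and glycogen genes 16 of 32 rose and 4 fell (median 0.58). Pgm1, which joins glycogen to glycolysis, had 1057, 894 and 792 CPM in anti-CD8a muscle, against 172, 377, 174 and 151 CPM in IgG muscle. Pgam2, the muscle phosphoglycerate mutase, rose by log2 2.03. The kinase-phosphatases that set fructose 2,6-bisphosphate parted: Pfkfb1 rose by log2 2.12 and Pfkfb3 fell, at log2 -2.09.

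Lipid and amino acid genes were called in both directions, beside 23.2% of all genes higher and 24.8% lower. Of the fatty acid use list 3 of 34 rose and 8 fell, with a median of -0.16 that turned to 0.07 with upper-quartile factors. Pnpla2, the triglyceride lipase ATGL, had 135, 204 and 235 CPM in anti-CD8a muscle, against 803, 655, 985 and 920.3 CPM in IgG muscle. It fell, at log2 -2.14 ± 0.29, and Acacb, whose product malonyl-CoA holds back fatty acid entry into mitochondria, at -1.45 ± 0.20. Acot1 and Acot2, acyl-CoA thioesterases, fell, at log2 -3.94 and -2.0, but they are close copies of each other. Of lipid synthesis genes 7 of 22 rose and 4 fell, of branched-chain amino acid breakdown genes 6 of 17 rose and 4 fell, with a median of -0.02 that turned to 0.21 with upper-quartile factors. Acaca, which makes malonyl-CoA for synthesis, and Insig1 fell, at log2 -1.86 and -1.87, and Idi1 of isoprenoid synthesis rose by log2 1.47. Of the regulators of mitochondria 4 of 19 rose and 4 fell, near the shares of all genes. Esrra, a nuclear receptor that drives respiratory genes, Perm1, its muscle partner, and the coactivator Ppargc1b rose by log2 1.43, 1.64 and 1.44, whereas Nrf1 fell, at log2 -1.03.

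In the insulin and IGF list 4 of 20 rose and 8 fell, with a median of -0.07 that turned to 0.16 with upper-quartile factors, and the 2 strongest members were binding proteins of IGFs that moved apart. Igfbp5 had 386, 300.4 and 261 CPM in anti-CD8a muscle, against 16.9, 43.5, 24 and 26.5 CPM in IgG muscle. Igfbp3 had 17.4, 12.9 and 14.7 CPM in anti-CD8a muscle, against 221, 66.4, 198 and 153 CPM in IgG muscle. Their log2 fold changes were 3.51 ± 0.40 and -3.41 ± 0.46, and neither pair of ranges overlapped. Grb14, an adaptor that inhibits the insulin receptor, rose by log2 2.89, and the kinase gene Akt1 fell, at log2 -2.25. Of metallothioneins, zinc and iron genes 7 of 10 fell and 1 rose, or 4 fell without IgG replicate 4, without any 1 anti-CD8a library or with upper-quartile factors. Slc39a14, the zinc importer ZIP14, had 10.9, 13.6 and 18.1 CPM in anti-CD8a muscle, against 152, 193, 86 and 248 CPM in IgG muscle. It fell, at log2 -3.58 ± 0.63, and Mt1, a zinc-binding metallothionein with a close copy in Mt2, at -3.17 ± 0.93. The transferrin receptor Tfrc, which takes up iron, rose by log2 3.0, with 176, 141 and 51.3 CPM in anti-CD8a muscle, against 21.8, 22.2, 8.25 and 9.28 CPM in IgG muscle.

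**Figure D4:**
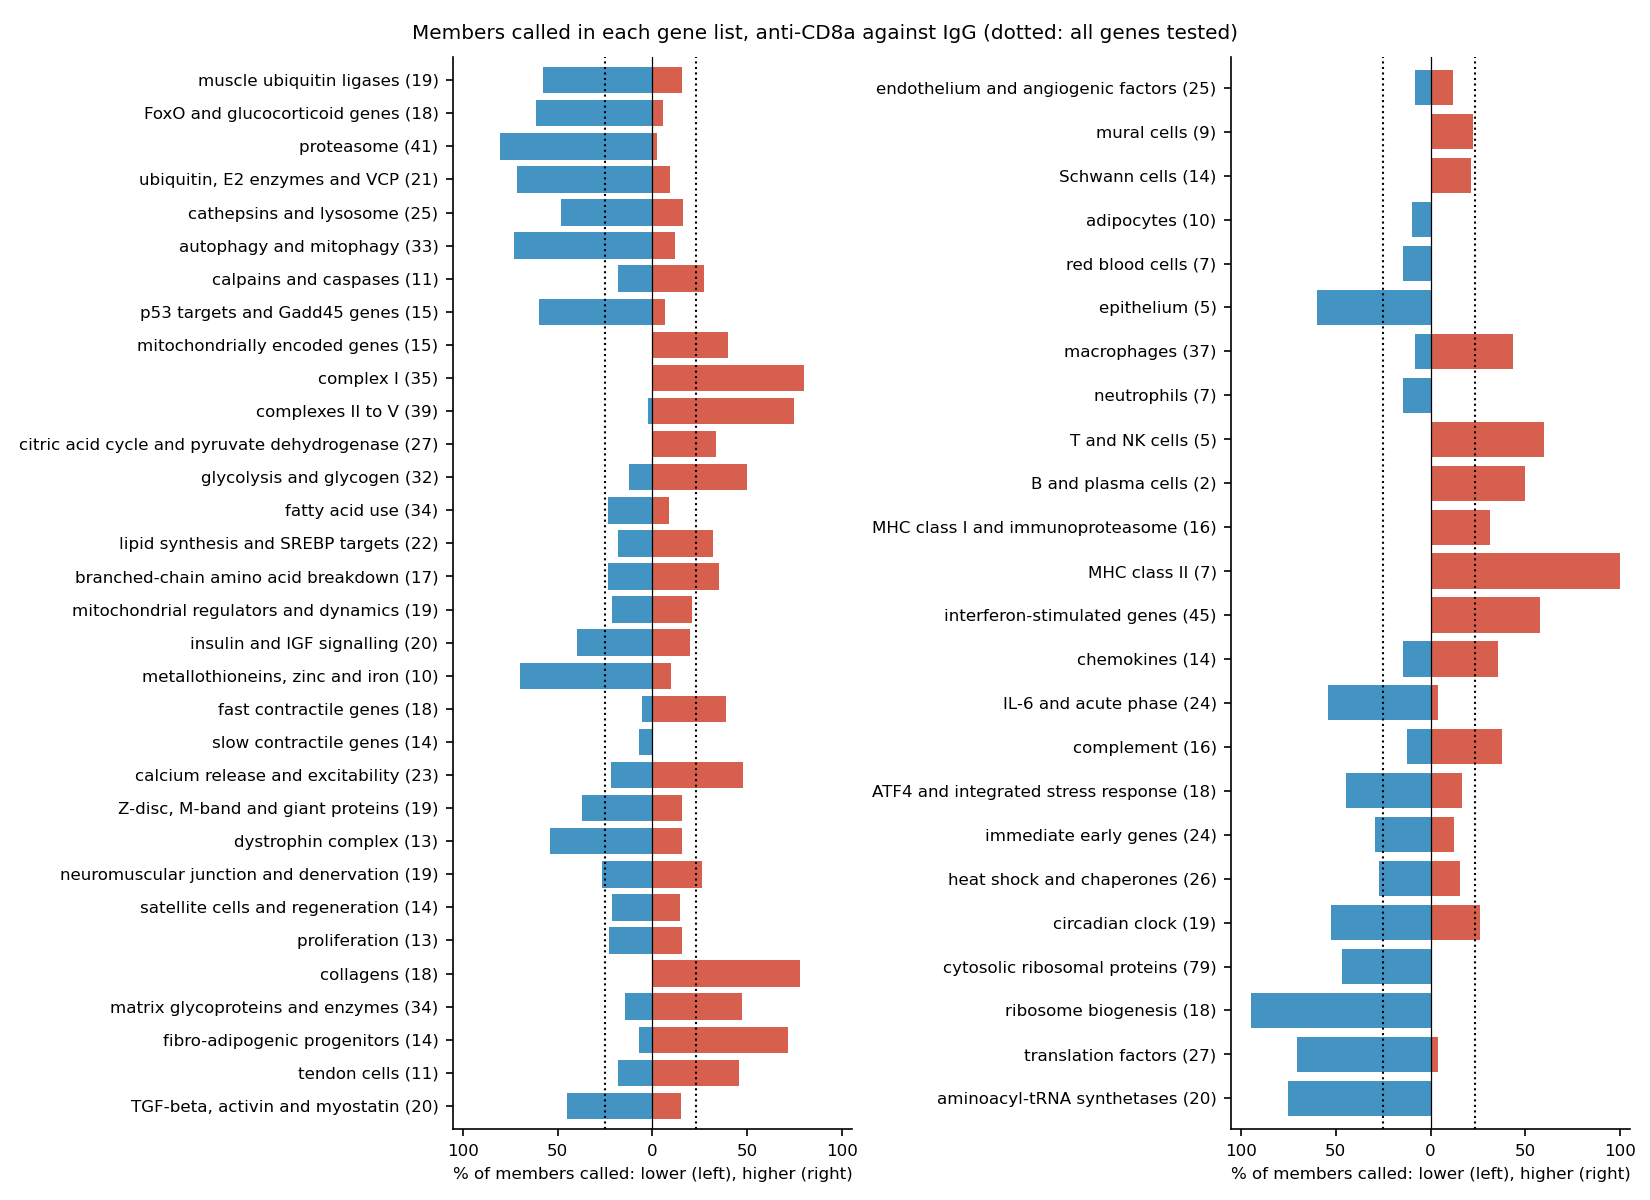
For each of 56 gene lists, the percentage of tested members (number in brackets) called higher (right, red) and lower (left, blue) in anti-CD8a than in IgG muscle. Dotted lines mark the 23.2% and 24.8% of all genes tested, which complex I (28 of 35) and collagens (14 of 18) pass to the right, and the proteasome (33 of 41) and ribosome biogenesis (17 of 18) to the left.

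The contractile apparatus moved in part. Of fast contractile genes 7 of 18 rose and 1 fell, or 3 rose without anti-CD8a replicate 1, and of slow ones 0 of 14 rose and 1 fell. Casq1, the calcium store protein of fast fibres, had 2201, 1542 and 1275 CPM in anti-CD8a muscle, against 305, 472, 181 and 78.3 CPM in IgG muscle. All anti-CD8a libraries lay above all IgG libraries (log2 2.69 ± 0.45, adjusted p = 2.29e-04). Myoz3, a Z-disc protein of fast fibres, rose by log2 2.35, and Mylk2, the skeletal myosin light chain kinase, fell, at log2 -1.17. Pvalb, the calcium buffer parvalbumin of fast fibres, had 8751, 6032 and 6438 CPM in anti-CD8a muscle, against 2861, 4077, 3043 and 1838 CPM in IgG muscle (log2 1.26 ± 0.38, adjusted p = 0.0123), a rise that lost its call without anti-CD8a replicate 1 (adjusted p = 0.0513). The fast myosin Myh4 made up 82.0%, 65.8% and 82.5% of the summed TPM (a level per transcript length) of 6 myosin heavy chain genes in anti-CD8a libraries, against 78.5%, 80.6%, 80.7% and 74.4% in IgG libraries. In the exact permutation test the embryonic Myh3 had p = 0.0571, the smallest that 35 splits allow, and 0.343 after adjustment over the 6 genes. That was the lowest adjusted p. With 7 libraries no share can reach p under 0.05 in this test, so it cannot decide whether fibre type shifted.

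Of calcium release and excitability genes 11 of 23 rose and 5 fell (median 0.42). Their summed CPM was not higher, at 12371, 11373 and 11528 in anti-CD8a libraries, against 18229, 12283, 12538 and 11959 in IgG libraries. Sypl2 (mitsugumin 29) and Jph2 (junctophilin 2), which build the junction between the cell membrane tubules and the calcium store, rose by log2 2.85 ± 0.41 and 2.14 ± 0.31. Clcn1, the muscle chloride channel, had 138, 119 and 131 CPM in anti-CD8a muscle, against 44.9, 60.3, 22.2 and 5.44 CPM in IgG muscle. IgG replicate 4 stood lowest, and the groups were apart (log2 1.96 ± 0.46). Of Z-disc, M-band and giant protein genes 7 of 19 fell and 3 rose, with 4 lower without IgG replicate 1, without anti-CD8a replicate 3 or with upper-quartile factors. Flnc (filamin C), which is recruited to damaged sarcomeres, had 565, 804 and 519.8 CPM in anti-CD8a muscle, against 3466, 2508, 3278 and 5525 CPM in IgG muscle. Xirp1, an actin-binding repeat protein, Nrap, a protein of forming myofibrils, and the muscle ankyrin repeat protein gene Ankrd2 of the slow list fell, at log2 -2.51, -1.73 and -2.02. Of the dystrophin complex 7 of 13 fell and 2 rose, with 4 lower without anti-CD8a replicate 3 and 2 lower with upper-quartile factors. Dmd and Dag1, its core, fell, at log2 -1.29 and -1.12, and Cav3 (caveolin 3) rose by log2 1.25.

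Of neuromuscular junction and denervation genes 5 of 19 were higher and 5 lower, near the 23.2% and 24.8% of all genes. The lower count was 3 without anti-CD8a replicate 3 or with upper-quartile factors, and the median of -0.15 turned to 0.09 with upper-quartile factors. Runx1, a transcription factor known to rise in denervated muscle, had 2.02, 1.88 and 3.07 CPM in anti-CD8a muscle, against 38, 15.7, 23.6 and 27.5 CPM in IgG muscle. It fell, at log2 -3.49 ± 0.41, whereas Hdac9, Lrp4, a receptor of the synapse, and Ache, which clears acetylcholine, rose by log2 2.31, 1.44 and 1.37. Of satellite cell and regeneration genes 2 of 14 rose and 3 fell, and of proliferation genes 2 of 13 rose and 3 fell, with a median of -0.08 that turned to 0.17 with upper-quartile factors. Mcm2 rose by log2 1.37 while Mcm7, of the same helicase, fell, at log2 -1.33.

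Extracellular matrix genes were higher in anti-CD8a muscle. Of collagens 14 of 18 rose and 0 fell, with a median log2 fold change of 1.65. Col1a1, a chain of the main fibrillar collagen, had 74.8, 63.2 and 22.5 CPM in anti-CD8a muscle, against 2.67, 5.96, 1.51 and 3.6 CPM in IgG muscle. Anti-CD8a replicate 3 was the lowest of its group and still lay above every IgG library (log2 3.95 ± 0.53, adjusted p = 5.16e-05). Col3a1, Col1a2 and Col6a3 rose by log2 3.75, 3.08 and 3.05. Of matrix glycoproteins and enzymes 16 of 34 rose and 5 fell. Among the rises were lumican (Lum, log2 2.25) and the crosslinking enzyme Loxl2 (log2 1.88), while its relative Lox fell, at log2 -1.95. Markers of fibro-adipogenic progenitors, the fibroblast-like cells of muscle that make much of this matrix, rose in 10 of 14 cases and fell in 1 (median 1.10). Pi16, a marker of progenitors near vessels, had 19.8, 27.4 and 18.3 CPM in anti-CD8a muscle, against 1.3, 2.59, 1.76 and 1.28 CPM in IgG muscle. Clec3b, Cd248 and Dpt rose by log2 2.97, 2.49 and 2.12. The 8 defining markers of these cells summed to between 252 and 290 CPM in anti-CD8a libraries, against between 114 and 166 CPM in IgG libraries. In RNA from whole muscle, fewer cells of a type and less RNA per cell cannot be told apart, here or for any cell type below.

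Of tendon markers 5 of 11 rose and 2 fell, with 3 higher without IgG replicate 1 or without anti-CD8a replicate 2. Kera (keratocan) had 2.34, 3.44 and 2.67 CPM in anti-CD8a muscle, against 0.0621, 0.361, 0.189 and 0.0611 CPM in IgG muscle, and Tnmd (tenomodulin) rose by log2 2.79. Log2 fold changes of the list ran from -2.13 to 4.01. The 7 defining tendon markers summed to between 44.4 and 77.7 CPM in anti-CD8a libraries, against between 48.1 and 75.0 CPM in IgG libraries, so their sum overlapped. The sum of all 11 went the other way from most calls. It was 76.6, 139 and 126 CPM in anti-CD8a libraries, against 187, 165, 307 and 159 CPM in IgG libraries, lower with the ranges apart. In the TGF-beta, activin and myostatin list 3 of 20 rose and 9 fell, with a median of -0.12 that turned to 0.11 with upper-quartile factors. Gdf11, the relative of myostatin, had 22, 16.1 and 12.1 CPM in anti-CD8a muscle, against 1.12, 3.31, 1.83 and 1.59 CPM in IgG muscle. It rose by log2 3.09 ± 0.45, as did the signal carrier Smad3 by 1.82 ± 0.35, while the receptor Acvr1b and the activin subunit Inhbb fell, at log2 -2.21 and -2.21.

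Few endothelial genes were called. Of endothelial genes and angiogenic factors 3 of 25 rose and 2 fell, below the 23.2% and 24.8% of all genes. Of mural cell genes 2 of 9 rose (22.2%), near the share of all genes, and 0 fell. Both medians (-0.02 and -0.0014) turned positive with upper-quartile factors (0.20 and 0.23), the mural one with the other scalings too (0.0029 and 0.0111). Angpt1, a ligand that steadies vessels, rose by log2 2.64 and Rgcc fell, at log2 -2.47. The 8 endothelial markers summed to between 166 and 290 CPM in anti-CD8a libraries, against between 153 and 243.8 CPM in IgG libraries. Schwann cell genes rose in 3 of 14 cases, near the 23.2% of all genes that rose. Adipocyte genes fell in 1 of 10, below the 24.8% of all genes that fell. Markers of red blood cells summed to between 263.5 and 457 CPM in anti-CD8a libraries, against between 245.6 and 1747 CPM in IgG libraries. The 9 epithelial and tumour markers summed to between 0.429 and 1.49 CPM in anti-CD8a libraries, against between 1.2 and 15.7 CPM in IgG libraries, with Nkx2-1 and Krt5 at 0 in all 7. The part of blood or epithelial RNA in the results was not tested.

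Immune genes parted by class. Of macrophage genes 16 of 37 rose and 3 fell (median 0.94), and 8 rose without anti-CD8a replicate 3, which had the highest summed macrophage signal of these 7 libraries. C1qa, a complement chain made by resident macrophages and picked out after its values were seen, had 8.71, 11.3 and 17.7 CPM in anti-CD8a muscle, against 6.7, 6.44, 4.41 and 5.5 CPM in IgG muscle. The groups were apart, at log2 1.13 ± 0.27 (adjusted p = 0.00295), and Folr2, a marker of resident macrophages, rose by log2 3.01. The 3 falls were elsewhere in the list. Cd68, a lysosomal protein, had 1.2, 2.2 and 3.37 CPM in anti-CD8a muscle, against 12, 5.12, 30.9 and 37 CPM in IgG muscle. Gpnmb, a protein of lipid-laden and damage-associated macrophages that other cells also express, had 1.8, 1.93 and 4.16 CPM in anti-CD8a muscle, against 18.9, 15.7, 19.8 and 18.6 CPM in IgG muscle. Chil3, a chitinase-like protein of macrophages, fell, at log2 -2.90, a call lost without IgG replicate 4 (adjusted p = 0.0731), without anti-CD8a replicates 1 or 2 (0.0749 and 0.0787) and with the replicate block (0.0588). The 12 macrophage markers summed to between 84.5 and 256 CPM in anti-CD8a libraries, against between 74.8 and 111 CPM in IgG libraries, and thus overlapped.

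All 7 tested genes of MHC class II, which presents peptides to CD4 T cells, rose (median 1.64), but anti-CD8a replicate 3 decided much of this. H2-Ab1 had 16.4, 23.3 and 60.2 CPM in anti-CD8a muscle, against 12.3, 17, 6.99 and 6.6 CPM in IgG muscle. Anti-CD8a replicate 1 lay within the IgG range, and without replicate 3 the call held for 3 of the 7 genes. Cd74, the invariant chain, rose by log2 1.57 ± 0.38 (adjusted p = 0.00323). Of MHC class I and immunoproteasome genes 5 of 16 rose and 0 fell, with 3 higher without IgG replicate 1 or without anti-CD8a replicate 3. Psme1 and Psme2, the activator of the immunoproteasome, and its subunit Psmb10 rose by log2 1.25, 0.75 and 1.22.

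Of interferon-stimulated genes 26 of 45 rose and 0 fell (median 0.82). Oasl2, an interferon-induced antiviral gene, had 1.96, 2.04 and 2.18 CPM in anti-CD8a muscle, against 0.0621, 0.963, 0.315 and 0.305 CPM in IgG muscle. It rose by log2 2.30 ± 0.50 (adjusted p = 0.00156), and the antiviral genes Ifit3 and Ifit3b, close copies of each other, by 1.84 and 2.52. Of chemokines 5 of 14 rose and 2 fell, with 3 higher without any 1 of IgG replicates 1, 3 and 4 or without anti-CD8a replicate 3. Cxcl13 and Cxcl10 fell. Cxcl13, which draws B cells, had 0.272, 0.107 and 0.99 CPM in anti-CD8a muscle, against 6.33, 10.9, 6.36 and 15.4 CPM in IgG muscle. Cxcl10, an interferon-induced attractant of T cells, had 0.49, 0 and 0.0495 CPM in anti-CD8a muscle, against 3.54, 0.542, 1.89 and 0.977 CPM in IgG muscle.

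Genes of the IL-6 and acute phase response were lower, with 13 of 24 down and 1 up (median -1.10), or 8 down without anti-CD8a replicate 1. Il6ra, the receptor that binds IL-6, had 8.93, 11.7 and 23.7 CPM in anti-CD8a muscle, against 200.2, 99.5, 124 and 162 CPM in IgG muscle. Every IgG library lay far above the highest anti-CD8a library (log2 -3.31 ± 0.51, adjusted p = 1.33e-04). Serpina3n, an acute phase protease inhibitor, had 2.02, 1.72 and 4.6 CPM in anti-CD8a muscle, against 18, 17.4, 38.2 and 24.5 CPM in IgG muscle, and Lcn2 (lipocalin 2) fell, at log2 -3.07. Pim1, a kinase induced by STAT3, fell, at log2 -2.63. Of complement genes 6 of 16 rose and 2 fell, among the rises C1s1, a protease of the classical pathway, at log2 1.12.

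T and NK cell signal was near the floor. The 15 T and NK cell markers summed to between 1.31 and 3.07 CPM in anti-CD8a libraries, against between 0.621 and 1.2 CPM in IgG libraries, and 12 of the 15, among them Trac, Cd4, Cd8a, Gzmb and Prf1, were below the filter. Cd3d and Nkg7 were at 0 in all 7 libraries. Of the wider list of 36 genes 31 were below the filter, so few of its genes could be tested. Of the 5 tested, 3 rose, beside 23.2% of all genes, namely Cd2, Cd3e and Cd28, surface proteins of T cells. Cd2 lost its call without anti-CD8a replicate 3 (adjusted p = 0.117), Cd28 without anti-CD8a replicate 1 (adjusted p = 0.107) and Cd3e without any 1 of IgG replicates 1, 3 and 4 (0.067, 0.0682 and 0.0501) and anti-CD8a replicates 1 and 2 (0.0812 and 0.0577). The 8 B and plasma cell markers summed to between 12.6 and 56.3 CPM in anti-CD8a libraries, against between 2.46 and 30.5 CPM in IgG libraries, and overlapped. Of the 13 B and plasma cell genes of the list 11 were below the filter, and of the 2 tested 1 rose, Ighm. Its call was lost without anti-CD8a replicate 2 (0.0881), without IgG replicates 3 or 4 (0.0535 and 0.054) and with the 2 groups alone (0.0509). The other tested gene pointed the other way, at log2 -3.53, and was not called. Of neutrophil genes 0 of 7 rose and 1 fell, Il1r2, a decoy receptor of interleukin 1, at log2 -2.50. The presence or loss of CD8 T cells in the muscle was not detectable at this depth.

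Of immediate early genes 3 of 24 rose and 7 fell, with a median of -0.04 that turned to 0.19 with upper-quartile factors. Btg2, an antiproliferative gene, had 23.6, 34.6 and 31.9 CPM in anti-CD8a muscle, against 413, 110.5, 147 and 178 CPM in IgG muscle, and Junb fell, at log2 -2.26. Of heat shock and chaperone genes 7 of 26 fell and 4 rose, with 4 lower without anti-CD8a replicate 3. Hspb1, a small heat shock protein that guards filaments, had 113, 155 and 119 CPM in anti-CD8a muscle, against 419.5, 457, 583 and 1019 CPM in IgG muscle, and Hspa5 (BiP) of the endoplasmic reticulum fell, at log2 -1.17. Of clock genes 10 of 19 were lower and 5 higher, beside 24.8% and 23.2% of all genes. Dbp, an output transcription factor of the clock, had 113, 93.5 and 57.7 CPM in anti-CD8a muscle, against 3.17, 3.25, 5.99 and 2.69 CPM in IgG muscle. Arntl (BMAL1), the core activator, had 5.94, 4.99 and 8.46 CPM in anti-CD8a muscle, against 59.7, 37.3, 25.3 and 62.9 CPM in IgG muscle. The log2 fold changes were 4.54 ± 0.42 and -2.84 ± 0.36, in opposite directions, and Cry2 and Nfil3 fell, at log2 -2.60 and -2.03. The labels do not give the hour of collection of any group, and its part in the clock results was not tested.

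**Figure D5:**
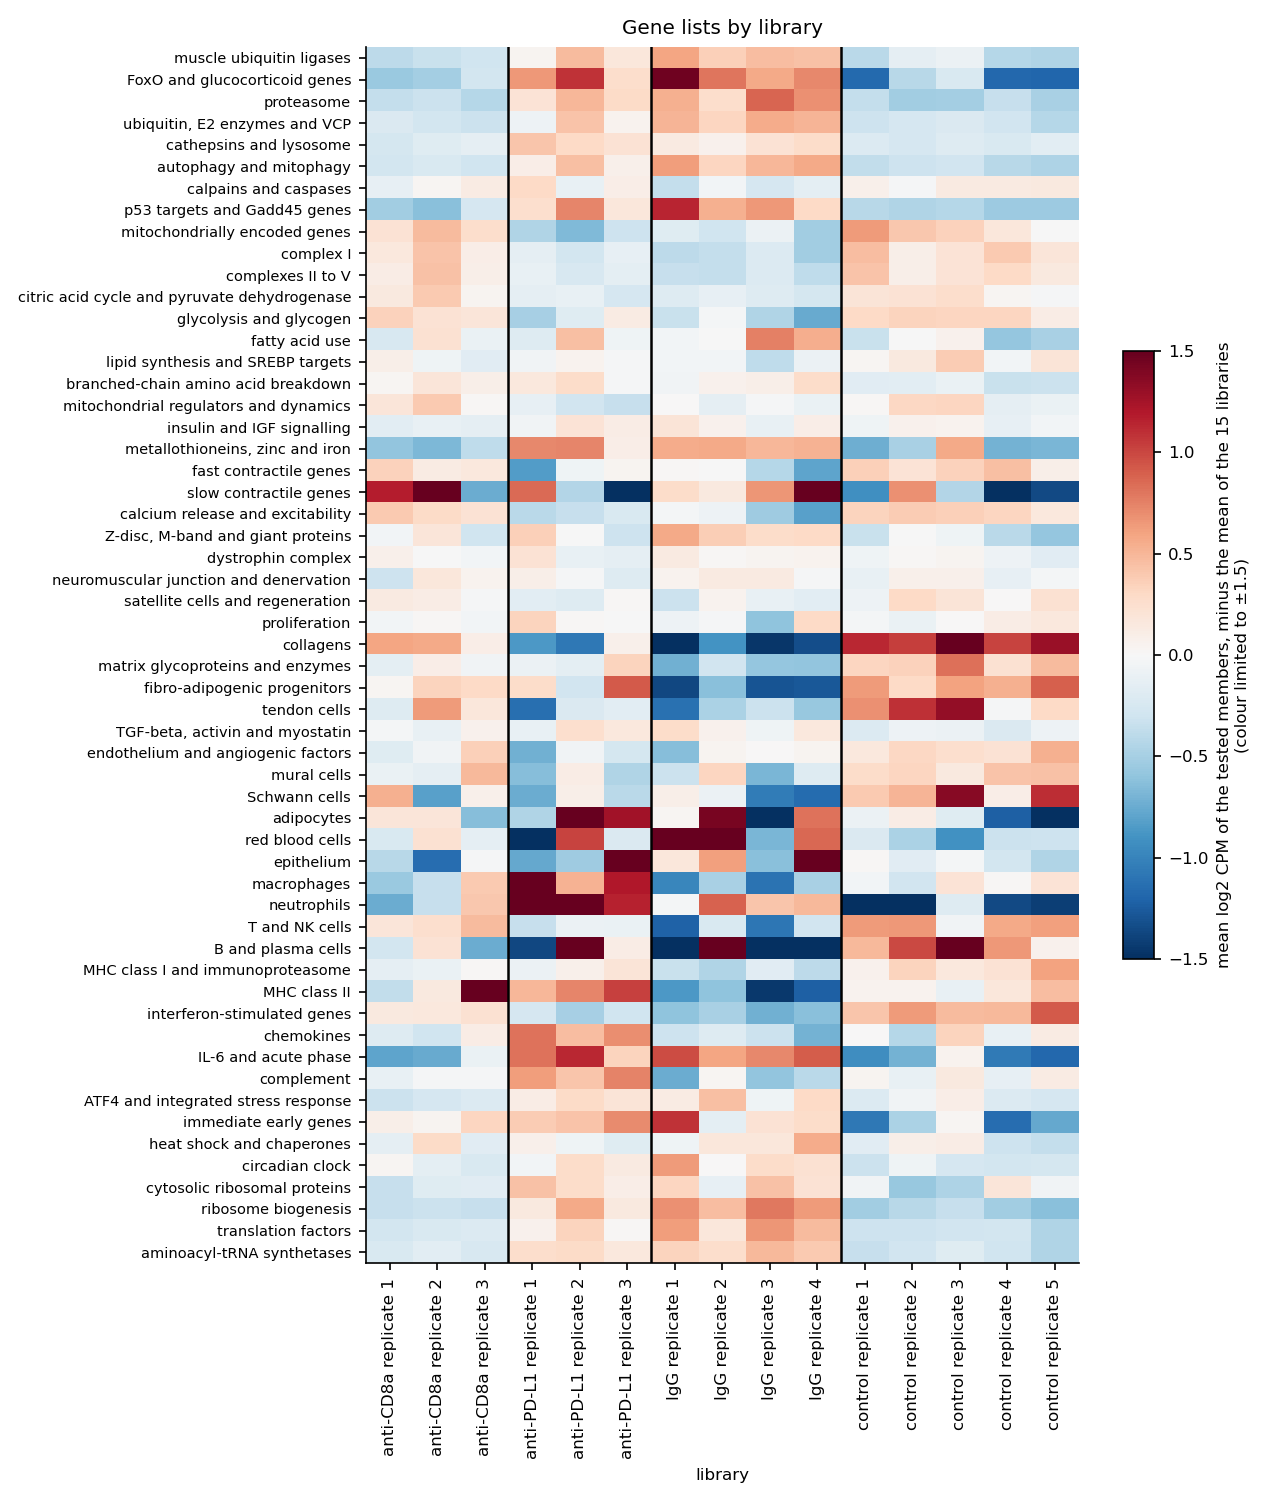
Mean log2 CPM of the tested members of each list (down the page) in each library (across), minus the mean of the 15 libraries, with colour limited to ±1.5. The ubiquitin ligase, FoxO and proteasome lists are lower in the 3 anti-CD8a libraries than in the IgG libraries, and MHC class II is highest among these 7 in anti-CD8a replicate 3.

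The largest rises among named genes were of low to middling abundance. Lrrc38, an auxiliary subunit of potassium channels, had 25, 19.5 and 17.7 CPM in anti-CD8a muscle, against 0.124, 1.14, 0.567 and 0.428 CPM in IgG muscle. Nrep had 109, 97.8 and 41.7 CPM in anti-CD8a muscle, against 0.931, 5.48, 1.76 and 2.26 CPM in IgG muscle, at log2 4.98 ± 0.52. Tmem233 had 208, 152 and 144 CPM in anti-CD8a muscle, against 4.41, 15.7, 2.39 and 1.53 CPM in IgG muscle. In each of these 3 genes every anti-CD8a library lay far above every IgG library. Plcd4, a phospholipase C, Aqp4, the water channel of fast fibres, Pde4a, a cAMP phosphodiesterase, and Ky, a protein of the muscle cytoskeleton, rose by log2 4.91, 4.78, 4.56 and 4.49. Nnat (neuronatin) rose by log2 5.14 ± 1.06 from a low base, at 7.3, 3.6 and 1.19 CPM in anti-CD8a muscle, against 0.0621, 0.12, 0.189 and 0.0611 CPM in IgG muscle. Foxo6os rose by log2 4.91, but it is antisense to Foxo6, and the labels do not say whether strand was used in counting.

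Some of the largest falls were of genes hardly detected in anti-CD8a muscle. Ripor3 had 3 counts over all anti-CD8a libraries and 986 over the IgG libraries, at 15.4, 2.17, 16.8 and 26.6 CPM. Aldh8a1, an aldehyde dehydrogenase, had 0 counts over the anti-CD8a libraries, against 139 over the IgG libraries, and was at least 40.8-fold lower, set against 3 counts over the group. In all, 17 genes had at most 3 counts over the anti-CD8a libraries and a mean of at least 1 CPM in IgG libraries, and 8 of these carried a given name, among them the acute phase relatives Serpina3m and Serpina3k and the apolipoprotein gene Apoc3. The count was 29 and 36 without anti-CD8a replicates 1 and 3. In the other direction 7 genes had at most 3 counts over the IgG libraries (15 without IgG replicate 2), of which 2 carried a given name. Apln, the vessel ligand apelin, had 72 counts over the anti-CD8a libraries, against 2 over the IgG libraries, and Wnt10b, a Wnt ligand, had 66 against 3. Above this floor, Wdr62, a spindle pole protein, had 1.03, 1.23 and 1.19 CPM in anti-CD8a muscle, against 25.9, 10.7, 21.4 and 37.7 CPM in IgG muscle, and Doc2b, a calcium sensor of exocytosis, had 1.74, 0.913 and 2.77 CPM in anti-CD8a muscle, against 25.1, 11.2, 30.2 and 68.8 CPM in IgG muscle. In both genes every anti-CD8a library lay below every IgG library, at log2 -4.37 ± 0.44 and -4.21 ± 0.79.

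Against anti-PD-L1, the other antibody, anti-CD8a muscle had 1098 genes higher (7.64% of those tested) and 1738 lower (12.1%), 2836 in all (19.7%). The split was 1265 higher and 1424 lower with DESeq2's size factors, and 1502 and 1232 with upper-quartile factors. The count was 1226 without anti-PD-L1 replicate 2, 1252 without anti-CD8a replicate 1 and 1311 without anti-CD8a replicate 2. The median absolute log2 fold change was 0.40. This contrast shares the anti-CD8a libraries with the one above. Trim63 had 257, 303 and 392 CPM in anti-CD8a muscle, against 2152, 6876 and 2607 CPM in anti-PD-L1 muscle (log2 -3.61 ± 0.58, adjusted p = 0.00121). Fbxo32 and Ctsl were lower, at log2 -2.66 and -1.67. Of macrophage genes 0 of 37 were higher and 22 were lower than in anti-PD-L1 muscle, and of neutrophil genes 0 and 4 of 7. C1qa had 8.71, 11.3 and 17.7 CPM in anti-CD8a muscle, against 39.2, 19.3 and 24.8 CPM in anti-PD-L1 muscle, with the IgG libraries below both. Proteasome genes were lower in 31 of 41 cases, and collagens were higher in 7 of 18. Chil3 had 0.109, 0.0537 and 0.693 CPM in anti-CD8a muscle, against 26.7, 5.66 and 7.34 CPM in anti-PD-L1 muscle (log2 -5.46 ± 0.96). Anti-CD8a replicates 1 and 2 lie under the 3-count limit for this gene, so the size of the fall is uncertain.

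Against tumour-free control muscle, anti-CD8a muscle had 1 gene higher and 1 lower of 14372 (0.00696% each, 0.0139% together) in edgeR, 1109 genes (7.72%) at an unadjusted p under 0.05, and 68 called in DESeq2. The edgeR count was 0 without control replicates 1, 3, 4 or 5 and without anti-CD8a replicates 1 or 2, and 1 without anti-CD8a replicate 3. The median absolute log2 fold change was 0.17 and the median standard error 0.23. Tbc1d4, the AKT substrate that governs glucose transporter traffic, averaged 51.2 ± 1.45 CPM in anti-CD8a muscle, against 28 ± 2.87 CPM in control muscle (log2 0.87 ± 0.13, adjusted p = 0.039). Spon2, a secreted matrix protein, averaged 0.122 ± 0.0595 CPM in anti-CD8a muscle, against 1.19 ± 0.285 CPM in control muscle (log2 -3.22 ± 0.47, adjusted p = 0.039). Its anti-CD8a mean lies under the 3-count limit of 0.15 to 0.162 CPM, so the size of this fall is uncertain. For the breakdown genes the intervals bound the difference: the log2 fold change of Trim63 was -0.72 (95% interval -1.73 to 0.30), that of Fbxo32 0.06 (-0.50 to 0.62) and that of Ctsl 0.14 (-0.40 to 0.68). Control replicate 3 was the highest for Trim63, with 1258 CPM where the other control libraries had 282.8 to 493 CPM. Mitochondrially encoded genes took 21.3% ± 1.53 of counts in anti-CD8a libraries (SD, n = 3), against 20.5% ± 2.27 in control libraries (n = 5). Collagens stood lower than in control muscle by a median of log2 -0.83 with 0 of 18 called. A missed threshold does not show that these groups are alike.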

How the data were processed

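Total RNA of 15 libraries was prepared with the MGIEasy RNA Directional kit, per the labels. Per the submitters' processing notes the tools were Trim Galore, STAR 2.7.9a and RSEM 1.3.3. The genome build, the annotation and the use of strand in counting are not given in the sources used here. The authors deposited RSEM expected counts for 55416 genes per library (52083 with a symbol), which were rounded to whole numbers here, and TPM, which served only for myosin shares and a second mitochondrial share. FPKM values were not used. Some genes are not reported here.

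Groups were taken from the sample titles. A single edgeR model (4.0.16, in R 4.3.3) held all 4 groups: TMM, filterByExpr by group (14372 genes kept), quasi-likelihood fit (11 residual degrees of freedom), Benjamini-Hochberg adjustment over all genes tested and a threshold of 0.05. Standard errors were derived from the size of each log2 fold change and its F statistic. Levels are TMM-normalised CPM. Shares were compared by two-sided exact permutation tests. The scripts were tested on simulated data. Floors of counts cover counting error only, while the 95% intervals of fold changes come from the fit and carry the spread between libraries.

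The 56 gene lists and the rule for naming genes were chosen with earlier results of these data known. Named were Ctsl, Trim63, Fbxo32, Cd8a, Cd8b1 and Cd274, the 12 genes of largest change each way, the 6 of largest difference in mean CPM each way, with a mean of at least 1 CPM, called and with ranges apart, and up to 4 called members of each list. Spon2, Tbc1d4, Foxo1, Foxo3, C1qa, Cd2 and Cd3e were named outside the rule, after their values were seen. Foxo4 and Foxo6 were given beside them, and are outside the counts of kept calls and of single libraries below. Alternatives were DESeq2 1.42.0, DESeq2 size factors, upper-quartile factors, no mitochondrially encoded genes, 2 other filters, the 2 groups alone, the replicate number as a block, and leaving out libraries. Promoter sequence is from RefSeq (GRCm38.p6), and Fbxo32 had no entry in the table used.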

Additional observations from a re-analysis of the deposited data

Results flagged for a closer look

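Single libraries that stood far from the rest were sought by Dixon's ratio, within the IgG group of 4 libraries and the control group of 5. This covered 280 sets of values of the named genes and shares. The limits used flag about 1 in 20 sets of independent, normally distributed values. CPM of related genes need not be such values, so the number flagged by chance here is not known. There were 31 flagged values, of which 11 were in IgG replicate 2, 7 in IgG replicate 1, 5 in IgG replicate 4, 3 in IgG replicate 3, 4 in control replicate 3 and 1 in control replicate 2.

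IgG replicate 2 was high for Col1a2 (19.5 CPM, the others 10.0 to 10.4), Clec3b (5.60 CPM, the others 1.43 to 2.08), C1s1 (20.9 CPM), Folr2 (0.602 CPM), Fgfbp1 (0.482 CPM) and Ighm (21.7 CPM, the others 1.7 to 1.77). It was also high for the energy and serine genes Pgm1 (377 CPM, the others 151 to 174), Pfkfb1 (16.3 CPM), Mdh1 (324 CPM) and Psph (3.73 CPM), and low for Ubb (2174 CPM, the others 3629 to 3828). In each of these genes it was the IgG library nearest to the anti-CD8a mean. IgG replicate 1 was high for Ppp1r15a (533 CPM), Maff (161 CPM, the others 19.7 to 38.9), Nfil3 (246.2 CPM), Pim1 (129 CPM), Pde4dip (7705 CPM) and Foxo3 (185 CPM) and low for Chad (0.372 CPM). IgG replicate 4 was high for Xirp1 (1608 CPM, the others 474 to 584), Usp28 (266 CPM), Rrm2 (12.8 CPM), Slc7a5 (22.2 CPM) and Krt8 (6.78 CPM, the others 0.378 to 1.08). IgG replicate 3 was high for mt-Co3 (7622 CPM, the others 4491 to 5004), Dbp (5.99 CPM) and Cd8a, where its 0.063 CPM is a single count.

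Control replicate 3 was high for Trim63 (1258 CPM), Cdkn1a (62.9 CPM, the others 14.9 to 25.9), Cxcl13 (2.07 CPM) and Cd8a (0.230 CPM), and control replicate 2 for Neil2 (0.531 CPM).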

How the results depend on the processing

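Of 229 genes chosen by the naming rule or added to it and called against IgG, of which the text gives fewer, none changed direction in any alternative run, 198 kept their call in every one and 31 lost it in at least 1. With upper-quartile factors, however, 9 list medians changed sign and the larger share of calls moved from lower to higher, against IgG (4629 higher, 2551 lower) and against anti-PD-L1 (1502 higher, 1232 lower). The count against IgG stayed within 1.5 times, between 5610 (replicate block) and 7664 (without replicates 2 of IgG and anti-PD-L1), and between 5687 and 7339 when 1 library was left out. Replicate numbers did not pair the libraries: same-numbered deviations correlated at -0.0634 to 0.126, 1 of 3 pairs over 0.1, and 1 of 3 anti-CD8a libraries correlated best with its own number. With the replicate block the calls were 2607 higher and 3003 lower against IgG, 1722 (657 higher, 1065 lower) against anti-PD-L1 and 0 (0 and 0) against control, metallothioneins, zinc and iron had 4 lower and ribosomal proteins 12 lower.

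Against anti-PD-L1 the 2 groups alone gave 1712 calls (914 lower), and 1758 (683 higher, 1075 lower) came without replicates 2 of IgG and anti-PD-L1. Leaving out 1 library gave 1226 to 3011 calls, 443 to 1215 higher and 733 to 1796 lower. Against control the count was 7 (4 higher, 3 lower) with upper-quartile factors, 68 (34 and 34) in DESeq2, 65 (41 and 24) without the filter, 56 (26 and 30) with the 2 groups alone, 12 (7 and 5) without replicates 2 of IgG and anti-PD-L1, and 0 to 2 (0 to 1 each way) without 1 library.

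Of 43 list counts of 5 or more in a direction, 26 stayed within 1.5 times in every alternative. Upper-quartile factors gave 9 lower for ubiquitin, E2 enzymes and VCP, 18 higher for the citric acid cycle, and lower counts of 4 for metals, 4 for the Z-disc, 2 for dystrophin, 3 for the neuromuscular junction and 8 for ribosomal proteins. Chemokines had 8 higher without the filter. Leaving out 1 library moved the higher counts to 3 to 7 for mitochondrially encoded genes, 19 to 29 for complexes II to V, 8 to 14 for the citric acid cycle, 3 to 8 for fast contractile genes, 3 to 5 for tendon, 8 to 19 for macrophages, 3 to 5 for MHC class I, 3 to 7 for MHC class II and 3 to 7 for chemokines. It moved the lower counts to 4 to 6 for metals, 4 to 8 for the Z-disc, 4 to 7 for dystrophin, 3 to 6 for the neuromuscular junction, 8 to 16 for IL-6 and acute phase, 4 to 10 for heat shock and 10 to 53 for ribosomal proteins. Genes near 0 numbered 5 in anti-CD8a and 2 in IgG when the other group had to reach 2 CPM, and 13 to 36 and 6 to 15 without 1 library. The cause of these shifts was not tested.

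With 3 and 4 libraries a share cannot reach p under 0.05, and genes below about 0.15 to 0.19 CPM, most T cell markers among them, are not measurable. Read division between near-identical genes, an unstated strand setting and unstated collection times limit single values. Tumour load, body weight and muscle mass were not analysed here.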
